A study of Mus musculus with 21 samples.

Results

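The genes described here are those of the urea cycle and of the release of ammonia from glutamine and glutamate in mouse liver: Cps1, Otc, Ass1, Asl, Arg1, Nags, Gls2 and Glud1. They were chosen by name, as every probe whose gene symbol in the annotation of the array is 1 of these 8. A total of 13 probes on the array carried 7 of the symbols, all 13 were detected on each of the 21 arrays, and each gene was represented by its brightest probe. Gls2 was not analysed here. The 7 genes were set beside the 11442 genes tested on the same arrays.

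The urea cycle turns ammonia, which is toxic, into urea, and it runs almost only in hepatocytes. Its first steps take place in mitochondria, where carbamoyl phosphate synthetase (Cps1) needs N-acetylglutamate made by Nags and ornithine transcarbamylase (Otc) makes citrulline. In the cytosol argininosuccinate synthetase (Ass1), argininosuccinate lyase (Asl) and arginase (Arg1) then complete the cycle, which is strongest in the periportal part of the liver lobule. Glutaminase (Gls2) and glutamate dehydrogenase (Glud1) release the ammonia of glutamine and glutamate.

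Livers of female CD-1 mice aged 3 months were taken 1, 3 and 6 h after 1 of 2 treatments, with 3 mice per group and 1 array per mouse. One treatment was 2/3 partial hepatectomy (PH), with 70% of the liver mass removed. The other was TCPOBOP (TCP), a ligand of the constitutive androstane receptor, given once by gavage at 3 mg/kg in dimethyl sulfoxide and corn oil. The 3 control mice were untreated, and neither sham-operated nor vehicle-treated mice, nor controls killed at matching times, were among the arrays. Surgery, anaesthesia, handling, the vehicle and the hour of killing therefore cannot be told apart from PH or TCP. As the arrays measured RNA of whole liver, fewer cells of a type and less RNA per cell cannot be told apart.

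Between 15982 and 17973 of the 45281 probes were detected per array, and 2 arrays of a group correlated at 0.963 or more. All 6 hepatocyte markers were detected, with a summed level of 66000 to 90100 over the PH arrays, 67700 to 92800 over the TCP arrays and 61500 to 92400 over the control arrays. Neutrophil markers S100a8, S100a9, Mpo and Ngp, 4 of the 5 listed, summed to 195 to 2170 after PH and 90.9 to 367 after TCP. The sum was 34.4 to 68.5 in control liver, and Ngp, though added, was not detected. Of the 3 tested, 2 were called higher than control at each time after PH and 0 at any time after TCP. Kupffer cell markers, 6 with 5 detected, summed to 573 to 839 at 1 h after TCP, against 1140 to 1520 in control liver. The 4 bile duct markers summed to 774 to 6520 at 3 h after PH, against 267 to 363. Krt19 and Epcam, 2 of these 4, were not detected, and of the 2 tested 1 was called higher at 3 h after PH. The red cell markers, 3 of 4 measured, summed to 11500 to 39500 after PH and 7710 to 29100 after TCP, against 23700 to 41900 in control liver. The livers were spread over 4 beadchips. TCP 3 h replicate 1, the TCP 6 h livers and control replicate 1 shared beadchip 1. Beadchip 2 held no control, only TCP 1 h replicates 1 and 2 and TCP 3 h replicates 2 and 3. The PH 1 h livers, PH 3 h replicates 1 and 2 and control replicate 2 were on beadchip 3, and the PH 6 h livers, PH 3 h replicate 3, TCP 1 h replicate 3 and control replicate 3 on beadchip 4.

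The promoter windows of Otc and Ass1 are given as an unlike pair from neighbouring enzymes of the cycle. Signals of their brightest probes did not vary together over the 21 livers (Pearson's r = 0.01). A link between sequence and signal was not tested. Each window is the 300 bases from 250 before to 50 after a RefSeq start in GRCm38.p6. Windows were at hand for 4 of the 8 genes (Otc, Ass1, Nags and Glud1). The Ass1 window lay at chr2:31470020-31470319 and the Otc window at chrX:10252055-10252354, both on the plus strand. The Ass1 window was set on the annotated start of the gene (chr2:31470270). That of Otc was set on a start downstream of the annotated start of the gene (chrX:10252230). Capitals mark the motifs found on either strand.
Ass1: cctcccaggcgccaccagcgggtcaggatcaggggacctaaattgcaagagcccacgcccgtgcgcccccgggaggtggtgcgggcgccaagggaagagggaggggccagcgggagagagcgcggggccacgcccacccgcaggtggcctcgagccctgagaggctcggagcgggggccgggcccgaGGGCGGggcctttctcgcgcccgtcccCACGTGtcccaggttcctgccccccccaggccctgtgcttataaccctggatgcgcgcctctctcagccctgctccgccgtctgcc
Otc: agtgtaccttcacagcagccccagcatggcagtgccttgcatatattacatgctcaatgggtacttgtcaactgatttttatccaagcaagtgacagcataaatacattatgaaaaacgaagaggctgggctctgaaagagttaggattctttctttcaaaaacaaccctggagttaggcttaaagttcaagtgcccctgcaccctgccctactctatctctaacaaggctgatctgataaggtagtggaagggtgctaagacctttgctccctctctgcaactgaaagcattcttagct
The Ass1 window held an E-box (CACGTG, in 7.15% of 32851 windows) beginning at -36 from the start and a GC box (GGGCGG, in 35.7% of windows), and no motif searched overlapped another there. The Otc window held none of the 8 motifs searched. GC content was 74% in the Ass1 window, higher than in 95.2% of all windows, and 44.3% in the Otc window, higher than in 20.1%. Nags and Glud1 also held the GC box, and Nags held TGACG (20.8% of windows). None of the 4 windows held TTGCNNAA (10.8% of windows), CCAAT (37.4%), TATAAA (13.6%), AGAACA (19%) or CAAAGTCC (1.42%). These are matches of letters and not binding sites.

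Signals of Cps1 (chromosome 1), Ass1 (chromosome 2), Arg1 (chromosome 10) and Glud1 (chromosome 14) lay at the 99.23 percentile of the probes or above on every array. The percentile of the Asl probe (chromosome 5) was 92.03 to 97.63, that of Otc (chromosome X) 83.98 to 91.85 and that of Nags (chromosome 11) 75.58 to 85.81. Signal differs between probes for reasons of the probe, so that these ranks do not order the transcripts. The 95% interval of a difference between 2 groups reached 0.36 to either side on the log2 scale for Arg1 and 0.70 for Nags, which was the narrowest and the widest of the 7 genes.

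Of the 7 genes, Asl alone was called in a comparison with control, at 6 h after TCP. A call needed a difference of at least 1.5-fold and a limma p below 0.05 after Benjamini-Hochberg adjustment over the 11442 genes. None of the 7 was called 1, 3 or 6 h after PH, where 0.402%, 7.43% and 20.8% of all genes were called. An unadjusted p under 0.05 was found for 1, 0 and 2 of the 7, beside 1221, 2429 and 4007 of the 11442 genes. After TCP, where 0.184%, 1.22% and 5.31% of all genes were called, the calls among the 7 were 0, 0 and 1. There 1, 3 and 2 of the 7 had an unadjusted p under 0.05, beside 920, 1568 and 2340 of all genes. The median log2 difference of the 7 from control was 0.00, 0.01 and 0.18 at hours 1, 3 and 6 after PH, beside 0.00, -0.05 and -0.08 over all genes. After TCP it was 0.05, 0.57 and 0.16, beside -0.01, -0.02 and -0.02 over all genes.

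**Figure D1:**
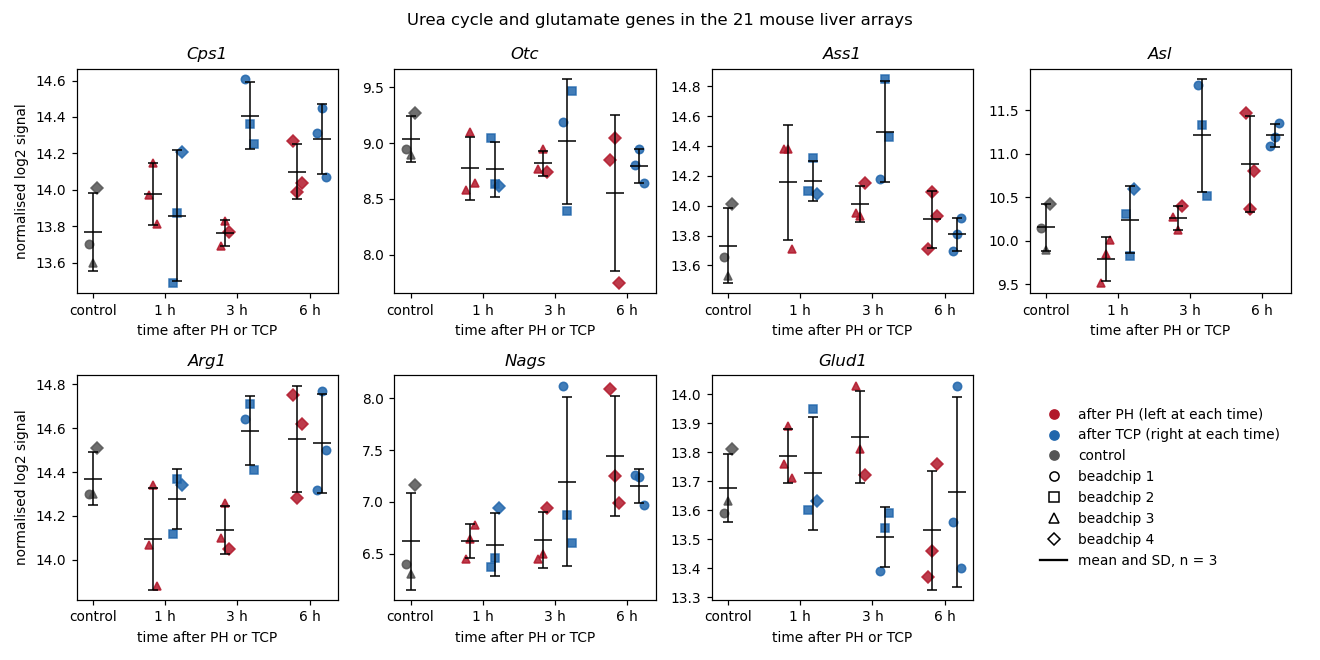
Normalised log2 signal of each of the 7 genes (y axis, with its own scale in each panel) in each of the 21 livers by time after treatment (x axis), with PH left of TCP at each time and control at the low end; shapes give the beadchip, and lines give the mean and SD of 3 mice. The 3 TCP 6 h livers lie above the 3 control livers for Asl, at 11.09 to 11.35 against 9.89 to 10.42.

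Asl, the lyase that splits argininosuccinate into arginine and fumarate, had normalised log2 signals of 11.09, 11.19 and 11.35 at 6 h after TCP, against 10.15, 9.89 and 10.42 in control liver. Every TCP 6 h liver was above every control liver. Asl rose by 1.06 on the log2 scale (SE 0.29), a fold of 2.08 with a 95% interval of 1.36 to 3.19 (limma adjusted p = 0.0427). Blocking on the beadchip gave a difference of 0.95 (adjusted p = 0.256), and within beadchip 1, which held 3 TCP 6 h livers and 1 control liver, it was 1.06 (adjusted p = 0.119). The call was lost without any 1 of the 6 livers, where the difference was 0.92 to 1.19 and the adjusted p 0.06 to 0.17. Red cell markers summed to 11000 to 21300 at 6 h after TCP, against 23700 to 41900 in control liver, and neutrophil markers to 100 to 149, against 34.4 to 68.5. Of 3 tested markers of each list 0 were called. The median log2 difference was -1.25 for the red cell markers and -0.03 for the neutrophil markers. The part of these markers in the result was not tested.

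At 3 h after TCP, Asl signals were 11.79, 11.33 and 10.51, against 10.15, 9.89 and 10.42 in control liver. All 3 were again above control, replicate 3 by a small margin, and the spread of the TCP 3 h livers was wide. The difference was 1.05 (SE 0.29), as large as at 6 h, and did not pass the adjusted test (adjusted p = 0.0878). Without replicate 3 of TCP 3 h it was 1.40 (adjusted p = 0.029), without replicate 1 it was 0.76 (adjusted p = 0.299), and within beadchip 1, which held replicate 1 alone of its group, it was 1.64. At 1 h after TCP the signals were 10.31, 9.83 and 10.59, which overlapped control, with a difference of 0.09.

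After PH, Asl signals were 9.52, 9.85 and 10.01 at 1 h, 10.27, 10.12 and 10.40 at 3 h, then 11.46, 10.37 and 10.80 at 6 h. Each PH group overlapped control liver. The differences from control were -0.36, 0.11 and 0.72 (SE 0.29 each), the last with an adjusted p of 0.0857. Without replicate 2 of PH 6 h, the lowest of its group, the last was 0.97 (adjusted p = 0.0273), without replicate 1, the highest, it was 0.43 (adjusted p = 0.371), and within beadchip 4 it was 0.45. By group mean Asl ran TCP 6 h (11.21), TCP 3 h (11.21), PH 6 h (10.88), PH 3 h (10.26), TCP 1 h (10.25), control (10.15) and PH 1 h (9.79). The ranges of each group and the next in this order overlapped.

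Cps1, which makes the carbamoyl phosphate that enters the cycle, gave 14.61, 14.36 and 14.25 at 3 h after TCP and 14.31, 14.45 and 14.07 at 6 h, against 13.70, 13.60 and 14.01 in control liver. All 6 of these TCP livers were above the 3 control livers. The difference was 0.64 at 3 h (SE 0.19, a fold of 1.55, adjusted p = 0.106) and 0.50 at 6 h (adjusted p = 0.121), and neither was called. A beadchip block gave 0.92 and 0.58, and the values within beadchip 1 were 0.91 and 0.58. With scaling to the median in place of quantiles they were 0.39 and 0.17. Red cell markers summed to 7710 to 11400 at 3 h after TCP, against 23700 to 41900 in control liver, and neutrophil markers to 92.2 to 322, against 34.4 to 68.5; their part in the values of Cps1, Asl and Ass1 at 3 h was not tested.

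One hour after TCP the Cps1 signals were 13.49, 13.87 and 14.21, the widest spread of any group. After PH they were 13.97, 14.15 and 13.81 at 1 h, 13.69, 13.83 and 13.77 at 3 h, then 14.27, 13.99 and 14.04 at 6 h. All 4 of these groups overlapped control, with differences of 0.09 at 1 h after TCP and 0.21, -0.01 and 0.33 after PH. Group means ran TCP 3 h (14.41), TCP 6 h (14.28), PH 6 h (14.10), PH 1 h (13.98), TCP 1 h (13.86), control (13.77) and PH 3 h (13.76), and neighbours in this order overlapped.

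Nags makes the N-acetylglutamate without which Cps1 is inactive. Its signals were 6.45, 6.64 and 6.78 at 1 h after PH, 6.45, 6.50 and 6.94 at 3 h and 8.09, 7.25 and 6.99 at 6 h, against 6.40, 6.31 and 7.16 in control liver. The PH 6 h group was the highest by mean (7.44) and 1 of its livers lay below control replicate 3. The difference at 6 h was 0.82 (SE 0.34, adjusted p = 0.0879), 1.08 (adjusted p = 0.0436) without control replicate 3 and 0.49 (adjusted p = 0.37) without PH 6 h replicate 1. The authors' normalised values gave 0.26, signals without background correction 0.48 and a beadchip block 0.62. Within beadchip 4, the chip of that control liver and of all 3 PH 6 h livers, it was 0.28. All 6 arrays of beadchip 4 had Nags signals of 6.94 or more. Before normalisation the Nags signals were 154 to 352, and the array medians 101 to 144. Whether the authors' normalised values and uncorrected signals share the scale of the main fit at so low a signal was not tested.

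After TCP, Nags signals were 6.37, 6.46 and 6.94 at 1 h, 8.12, 6.87 and 6.60 at 3 h, then 7.26, 7.24 and 6.97 at 6 h. Each group overlapped control, and the differences were -0.03, 0.57 and 0.54. The first liver of TCP 3 h was the highest of the 21, and without it the difference at 3 h was 0.11.

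Otc joins carbamoyl phosphate to ornithine. Its group means ran 8.77, 8.82 and 8.55 at hours 1, 3 and 6 after PH and 8.77, 9.02 and 8.80 after TCP, against 9.04 in control liver. Signals were 8.85, 9.05 and 7.75 at 6 h after PH, against 8.95, 8.89 and 9.27 in control liver, a difference of -0.49 (SE 0.29, adjusted p = 0.247). Without replicate 3 of PH 6 h, the lowest of the 21 livers, it was -0.09. The 6 differences of Otc from control were -0.49 to -0.02, with overlap in each and no call.

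Ass1, which joins citrulline to aspartate, had signals of 14.10, 14.32 and 14.08 at 1 h after TCP, 14.18, 14.85 and 14.46 at 3 h, and 13.70, 13.81 and 13.92 at 6 h, against 13.66, 13.53 and 14.01 in control liver. All TCP livers at 1 and 3 h were above control, and the TCP 6 h livers lay within the range of the control livers. The difference was 0.44 at 1 h (adjusted p = 0.604), 0.76 at 3 h (SE 0.20, a fold of 1.70, adjusted p = 0.0765) and 0.08 at 6 h, and none was called. Under a beadchip block these were 0.13 at 1 h and 0.55 at 3 h. Within beadchips they were 0.08 on beadchip 4 at 1 h and 0.52 on beadchip 1 at 3 h.

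After PH, Ass1 signals were 14.38, 14.38 and 13.71 at 1 h, 13.95, 13.93 and 14.15 at 3 h, then 13.71, 14.09 and 13.93 at 6 h. All overlapped control. The differences were 0.43 (adjusted p = 0.468), 0.28 and 0.18, and the first was 0.63 within beadchip 3. By group mean, Ass1 ran TCP 3 h (14.50), TCP 1 h (14.17), PH 1 h (14.16), PH 3 h (14.01), PH 6 h (13.91), TCP 6 h (13.81) and control (13.73), with overlap between neighbours.

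Arg1 hydrolyses arginine to urea and ornithine. It gave 14.07, 14.34 and 13.88 at 1 h after PH, 14.10, 14.26 and 14.05 at 3 h, and 14.75, 14.28 and 14.62 at 6 h, against 14.30, 14.30 and 14.51 in control liver. The 3 PH 3 h livers lay below control, by -0.23 on average (adjusted p = 0.504), and the others overlapped. Group means after TCP were 14.28, 14.59 and 14.53 at 1, 3 and 6 h. All 6 differences of Arg1 from control lay between -0.27 and 0.22 (SE 0.17 each), the lowest adjusted p among them being 0.491.

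Glud1, the mitochondrial enzyme that releases ammonia from glutamate, had group means of 13.79, 13.85 and 13.53 at hours 1, 3 and 6 after PH and 13.73, 13.51 and 13.66 after TCP, against 13.68 in control liver. The differences lay between -0.17 and 0.17 (SE 0.17 each), and every group overlapped control. The 95% intervals of these 6 differences lay within -0.54 and 0.54.

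**Figure D2:**
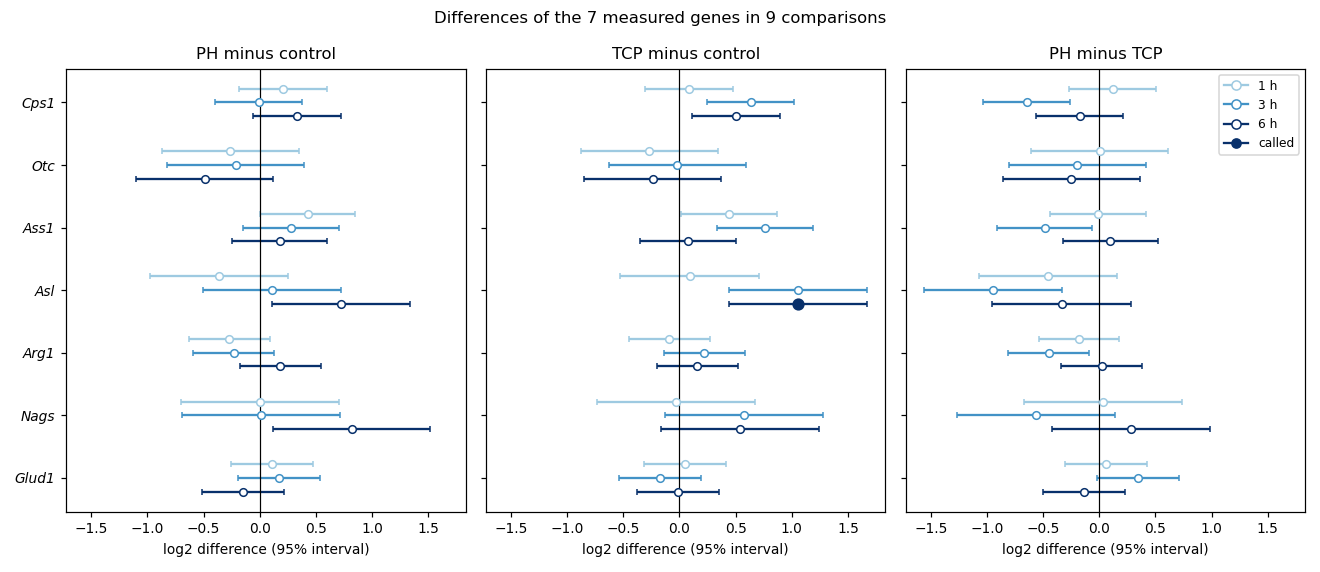
Differences of the 7 genes (rows) on the log2 scale (x axis, 95% interval) for PH minus control, TCP minus control and PH minus TCP at 1, 3 and 6 h, each of 3 livers against 3; the filled point was called. Asl at 6 h after TCP, at 1.06, is the filled point, and at 3 h the PH minus TCP differences of 6 genes lie below 0.

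Set directly against each other, PH and TCP livers of the same time gave no call among the 7 genes. Of all genes, 0.271% were called at 1 h, 4.36% at 3 h and 10.3% at 6 h. An unadjusted p under 0.05 was found for 0, 4 and 0 of the 7, beside 1060, 2118 and 2843 of the 11442 genes. At 3 h, 1 of the 7 genes was higher after PH and 6 were lower, while 46.9% of all genes were higher. The median difference of the 7 was -0.49, beside -0.02 over all genes. Cps1 had 13.69, 13.83 and 13.77 at 3 h after PH, against 14.61, 14.36 and 14.25 at 3 h after TCP. The groups did not overlap, and the difference of -0.65 (SE 0.19, a fold of 0.64) had an adjusted p of 0.0542. Asl (-0.95, adjusted p = 0.0768), Ass1 (-0.49, adjusted p = 0.198) and Arg1 (-0.45, adjusted p = 0.156) also had every PH liver below every TCP liver, and Glud1 (0.34, adjusted p = 0.304) had every PH liver above. How many of all genes separated in this way was not counted. The Asl difference was -1.30 (adjusted p = 0.0196) without replicate 3 of TCP 3 h and -0.66 (adjusted p = 0.294) without replicate 1.

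PH and TCP livers of 1 time never shared a beadchip, so that no value within a beadchip exists for these differences. Under a beadchip block that of Cps1 at 3 h was -0.94 (adjusted p = 0.15), that of Asl -1.21, that of Ass1 -0.26 and that of Arg1 -0.56. At 3 h red cell markers summed to 18200 to 27700 after PH and 7710 to 11400 after TCP, and neutrophil markers to 958 to 2170 after PH and 92.2 to 322 after TCP. Their part in the differences was not tested. Hepatocyte markers summed to 66000 to 90100 after PH and 72900 to 78500 after TCP. At 1 and 6 h the differences of the 7 genes lay between -0.45 and 0.28.

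Taken over all 3 times in limma's F test, Asl was called after TCP (adjusted p = 0.0333), among 5.21% of all genes. Ass1 (adjusted p = 0.0664) and Cps1 (adjusted p = 0.0763) were not. After PH, where 21.2% of all genes were called, 0 of the 7 were, Asl having the lowest adjusted p, 0.0545.

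**Figure D3:**
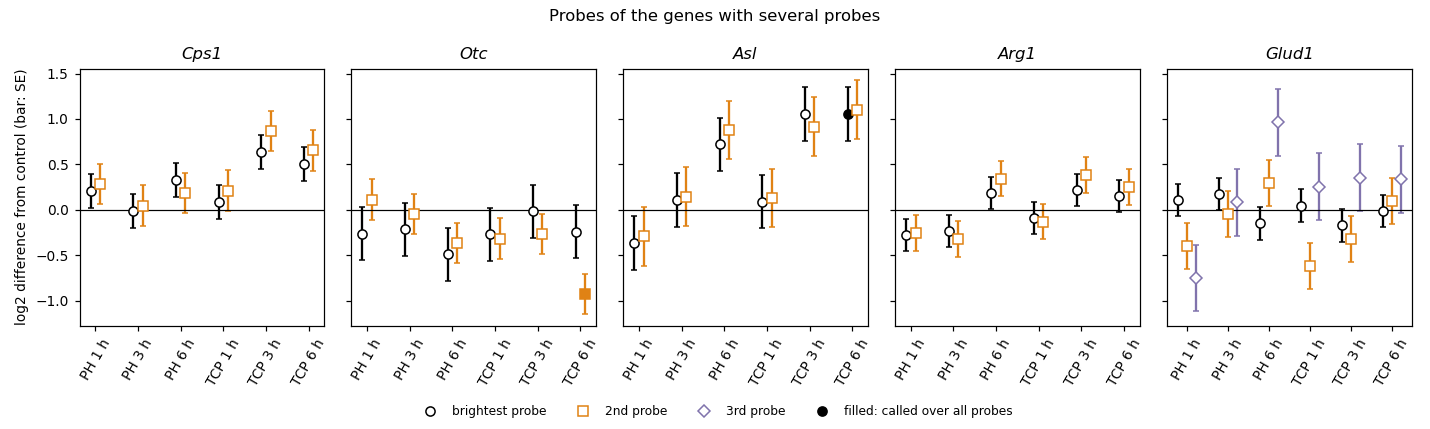
Log2 difference from control (y axis, bars 1 SE) in each treated group (x axis) for every probe of the 5 genes with several probes; filled points were called over the 17970 probes. The second Otc probe at 6 h after TCP, at -0.92, lies apart from the brightest Otc probe, at -0.24.

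Probes of a gene gave like values for Asl, Cps1 and Arg1, and unlike values for Otc and Glud1. At 6 h after TCP the 2 Asl probes gave 1.06 (adjusted p = 0.0482 over 17970 probes) and 1.10 (adjusted p = 0.0603). The second Cps1 probe gave 0.87 and 0.66 at 3 and 6 h after TCP, somewhat above the brighter probe, and was called between PH and TCP at 3 h, at -0.82 (adjusted p = 0.0451). The second Arg1 probe had 13.38, 13.47 and 13.31 at 3 h after PH, against 14.28, 14.15 and 13.83 at 3 h after TCP, and was called at -0.70 (adjusted p = 0.0492).

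The second Otc probe had 7.17, 7.57 and 7.53 at 6 h after TCP, against 8.18, 8.61 and 8.25 in control liver. The groups did not overlap, and it fell by 0.92 on the log2 scale (SE 0.22, adjusted p = 0.0234). The brighter Otc probe, which stood for the gene, had 8.80, 8.95 and 8.64 in the same livers, against 8.95, 8.89 and 9.27, a difference of -0.24. Both probes were assigned to the same transcript accession, and which of them follows Otc RNA was not tested. The third Glud1 probe ran between -0.75 at 1 h and 0.97 at 6 h after PH without a call, whereas the brightest stayed within -0.17 and 0.17.

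Across the 21 livers, Cps1, Asl, Arg1 and Nags varied together, with Pearson's r of 0.59 to 0.80 between pairs of them. Otc and Ass1 stood apart from these 4 genes and from each other, with r between -0.11 and 0.29, and Glud1 ran against Asl (r = -0.52) and Nags (r = -0.49). The livers share groups and beadchips, so that these values describe the 21 arrays and carry no test. The genes most like Asl over these arrays were Hnrnpa2b1 (r = 0.92), Mtch2 (0.91) and Cnih1 (0.88), and those most like Nags were Rnf13, Ppp1cb and Selenof (0.86 to 0.87). Sult1d1, Srsf10 and Ccnc came closest to Cps1 (0.77 to 0.79), and Ppm1d, Mars2 and Rsrc2 to Arg1 (0.80 to 0.81). For Otc these were Ugt2a3, Ces1f and Nxt2 (0.80 to 0.84), for Ass1 Prodh, Txn2 and Gcat (0.77 to 0.80), and for Glud1 Pon2, Inhbc and Rnf187 (0.75 to 0.78).

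**Figure D4:**
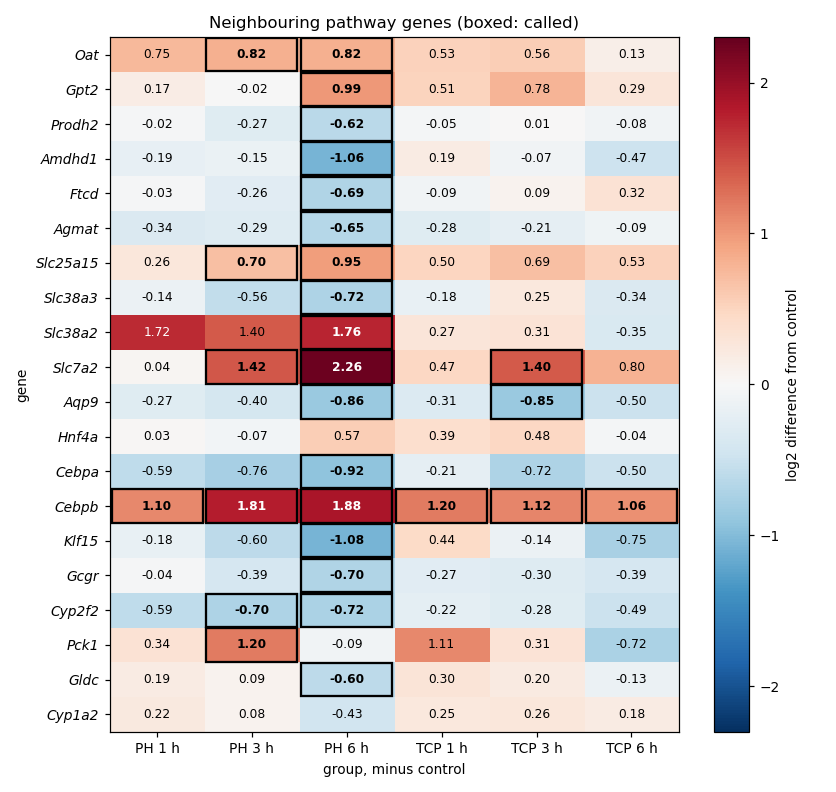
Log2 difference from control (colour and printed value, 3 livers against 3) in each treated group (columns) for genes of the neighbouring pathways (rows) that were called in any comparison; boxes mark calls against control. Most boxes stand in the PH 6 h column, and Cebpb is boxed in all 6.

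Of 17 measured genes among 23 enzymes that handle ammonia, glutamate and the amino acids that feed it, 1 rose at 3 h after PH, where 7.43% of all genes were called, and 2 rose and 4 fell at 6 h, the comparison with the most calls on the array (20.8% of all genes). None was called at 1 h after PH (4 at an unadjusted p under 0.05) or at 1, 3 or 6 h after TCP (2, 3 and 2). Over all 11442 genes, 1221 had such a p at 1 h after PH, and 920, 1568 and 2340 after TCP. The median difference of the 17 genes at 6 h after PH was -0.36, beside -0.08 over all genes. Of the 7 calls, 1, that of Gpt2, held under a beadchip block. At 6 h after PH neutrophil markers summed to 374 to 730, against 34.4 to 68.5 in control liver. The 4 bile duct markers summed to 450 to 1630, against 267 to 363, with 0 of the 2 tested called. Red cell markers summed to 11500 to 29700, against 23700 to 41900, with 1 of 3 lower by the test. Of 5 markers of sinusoidal endothelium 2 were higher by the test, though their sum was 2600 to 6300, against 4590 to 5390. Of 4 stellate cell markers 1 was higher and 1 lower, and they summed to 9540 to 17200, against 8620 to 11100. The part of these markers in the changes of these and the following lists was not tested.

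Ornithine aminotransferase (Oat), which links ornithine to glutamate, had 13.19, 13.74 and 13.44 at 3 h after PH and 13.38, 13.41 and 13.56 at 6 h, against 12.37, 12.50 and 13.04 in control liver. Every one of these PH livers was above control. Oat rose by 0.82 at both times (SE 0.21; adjusted p = 0.0242 and 0.01), and by 0.97 and 0.39 within beadchips 3 and 4 at 3 h and 0.41 within beadchip 4 at 6 h. The call at 3 h was lost without PH 3 h replicate 2 or 3, or control replicate 1 or 2 (0.68 to 1.02), and that at 6 h without control replicate 1 (0.68 to 1.02 over the 6 fits). Under the block on beadchips the adjusted p was 0.0705 at 3 h and 0.0821 at 6 h.

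Alanine aminotransferase 2 (Gpt2) had 12.14, 11.99 and 12.93 at 6 h after PH, against 11.46, 11.41 and 11.22 in control liver, with no overlap. It rose by 0.99 (SE 0.24, adjusted p = 0.00626), and by 1.02 under the block (adjusted p = 0.0423). Amdhd1, of histidine breakdown, had 11.34, 11.85 and 10.54, against 12.31, 12.30 and 12.31 in control liver, and fell by 1.06 (SE 0.24, adjusted p = 0.00436; 0.0707 with the block). Agmatinase (Agmat) had 12.44, 12.73 and 12.50, against 13.27, 13.13 and 13.21, and fell by 0.65 (adjusted p = 0.00625, and 0.0551 with the block). After TCP, Gpt2 also lay above every control liver at 1 h (11.82, 12.04 and 11.77) and 3 h (11.86, 12.54 and 12.02). Amdhd1 lay below every control liver at 6 h after TCP (11.85, 11.89 and 11.77). These TCP values of Gpt2 and Amdhd1 gave no call.

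Prodh2, of hydroxyproline breakdown, fell by 0.62 at 6 h after PH (adjusted p = 0.0368) and lost the call without PH 6 h replicate 1 or 2, or control replicate 1 or 2 (-0.74 to -0.51). Ftcd, of histidine and folate metabolism, fell by 0.69 (adjusted p = 0.0128), lost the call without PH 6 h replicate 1 or control replicate 1 (-0.79 to -0.57), and gave 0.09 on its second probe. Under the block the adjusted p was 0.24 for Prodh2 and 0.103 for Ftcd. The other probes of Prodh2 gave -0.36 and -0.43 without a call.

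Of 12 carriers and channels of the cycle's substrates, 10 were measured. At 3 h after PH 2 rose (7.43% of all genes called), at 6 h after PH 3 rose and 2 fell (20.8%), and at 3 h after TCP 1 rose and 1 fell (1.22%). No carrier was called at 1 h after PH or at 1 or 6 h after TCP (1, 1 and 4 at an unadjusted p under 0.05). Over all 11442 genes, 1221, 920 and 2340 had such a p. The mitochondrial ornithine carrier Slc25a15 had 12.74, 12.41 and 12.50 at 3 h after PH and 12.89, 12.31 and 13.22 at 6 h, against 11.90, 11.82 and 11.84 in control liver, with no overlap. It rose by 0.70 at 3 h (adjusted p = 0.0424) and 0.95 at 6 h (SE 0.20, adjusted p = 0.00257), the second also with the block (0.86, adjusted p = 0.0411). The call at 3 h was lost without PH 3 h replicate 1 or 3, or any 1 of the 3 control livers (0.60 to 0.76), and the adjusted p was 0.138 with the block.

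The arginine transporter Slc7a2 had 8.77, 9.01 and 9.28 at 3 h after PH and 10.70, 9.49 and 9.38 at 6 h, against 7.61, 7.29 and 7.89 in control liver. All 6 PH livers were above control by more than the range of the control livers. It rose by 1.42 and 2.26 (SE 0.29; adjusted p = 0.00539 and 6.27e-05), and by 1.61 and 2.20 with the block. At 3 h after TCP it rose by 1.40 (adjusted p = 0.0238; 0.246 with the block), a call lost without TCP 3 h replicate 1 or 2, or control replicate 1 or 2 (1.20 to 1.57). Its 2 dimmer probes were called in none of these comparisons, with -0.12 and 0.25 at 3 h after PH, 0.55 and 0.79 at 6 h after PH and -0.05 and 0.06 at 3 h after TCP. The authors' normalised values gave 0.74 and 1.37 at 3 and 6 h after PH, and 0.73 at 3 h after TCP, where the call was lost.

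The amino acid transporter Slc38a2 had 12.02, 12.12 and 13.04 at 6 h after PH, against 10.73, 10.99 and 10.18 in control liver, and rose by 1.76 (SE 0.45, adjusted p = 0.00819; 0.0733 with the block), with 1.10 and 1.36 on its other probes. The glutamine transporter Slc38a3 had 12.09, 12.45 and 11.74, against 12.87, 12.80 and 12.76, and fell by 0.72 (adjusted p = 0.0106; 0.0994 with the block); the call was lost without PH 6 h replicate 3 (-0.90 to -0.54 over the 6 fits). The glycerol and urea channel Aqp9 fell by 0.86 at 6 h after PH (adjusted p = 0.00391; 0.0683 with the block) and by 0.85 at 3 h after TCP (adjusted p = 0.037). The second of these calls was lost without any 1 of the 6 livers (-0.95 to -0.68) and with the block (adjusted p = 0.302).

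Of 7 measured regulators of 8 listed, 1 rose and 3 fell at 6 h after PH, where 20.8% of all genes were called. In each other group 1 rose, beside 0.402% and 7.43% of all genes called at 1 and 3 h after PH. After TCP these shares were 0.184%, 1.22% and 5.31%. An unadjusted p under 0.05 held for 1, 5 and 5 regulators after PH (1221, 2429 and 4007 of all genes). After TCP it held for 2, 3 and 3 (920, 1568 and 2340). The transcription factor Cebpb was higher than control in all 6 groups. Its signals were 14.09, 13.69 and 14.05 at 6 h after PH and 13.06, 13.01 and 13.27 at 6 h after TCP, against 11.76, 12.09 and 12.34 in control liver. It rose by 1.10, 1.81 and 1.88 at hours 1, 3 and 6 after PH (SE 0.23; adjusted p = 0.0437, 0.00022 and 4.74e-05) and by 1.20, 1.12 and 1.06 after TCP (adjusted p = 0.0387, 0.0236 and 0.0127). In the model with beadchips, the calls at 3 and 6 h after PH held (1.65 and 1.72), and the others had adjusted p of 0.0523 to 0.565. On the authors' normalised values the calls at 1 h after PH (1.12) and 1 h after TCP (1.22) were lost. Each call that ended under the block was also lost without control replicate 1. The calls at 1 h after PH and at 1 and 3 h after TCP were also lost without control replicate 2. Among the treated livers, PH 1 h replicates 2 and 3, every TCP 1 h liver, TCP 3 h replicates 2 and 3 and TCP 6 h replicate 3 each ended the call of their own group (0.90 to 1.42).

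At 6 h after PH, Cebpa, a related factor of differentiated hepatocytes, fell by 0.92 (adjusted p = 0.0297; 0.0748 with the block), and gave -0.50 without a call on the authors' normalised values. Its call was lost without PH 6 h replicate 2 or 3, or control replicate 1 or 3 (-1.12 to -0.66). Klf15, a regulator of amino acid breakdown, fell by 1.08 (adjusted p = 0.00299; 0.0513 with the block) and gave -0.28 on those values. The glucagon receptor Gcgr fell by 0.70 (adjusted p = 0.013; 0.115 with the block), a call lost without PH 6 h replicate 1 or control replicate 2 (-0.81 to -0.60). Hnf4a, a factor of hepatocyte identity, stayed under 1.5-fold in each group, with a difference of 0.57 at 6 h after PH (adjusted p = 0.0177).

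Of the other periportal genes, 6 of 8 were measured. At 3 h after PH 1 rose and 1 fell (7.43% of all genes called), and at 6 h after PH 2 fell (20.8%). Cyp2f2, a cytochrome P450, had 13.41, 13.98 and 14.08 at 3 h after PH and 13.93, 13.77 and 13.71 at 6 h, against 14.52, 14.50 and 14.55 in control liver. It fell by 0.70 (adjusted p = 0.0362; 0.117 with the block) and 0.72 (adjusted p = 0.0132; 0.0426 with the block), the first call being lost without PH 3 h replicate 1 or any 1 control liver (-0.83 to -0.50). Pck1, of gluconeogenesis, rose by 1.20 at 3 h after PH (adjusted p = 0.0242; 0.119 with the block), lost without PH 3 h replicate 1 or 2, or control replicate 1 or 2 (1.03 to 1.42). Gldc, of the glycine cleavage system, fell by 0.60 at 6 h after PH (adjusted p = 0.0434; 0.271 with the block), lost without PH 6 h replicate 1 or 3, or any 1 control liver (-0.80 to -0.34), and gave -0.32 without a call on its second probe.

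No periportal gene was called at 1 h after PH or at 1, 3 or 6 h after TCP (1, 1, 0 and 3 at an unadjusted p under 0.05). Over all 11442 genes, 1221, 920, 1568 and 2340 had such a p. Of 9 pericentral genes 8 were measured, and Oat, also an enzyme of the list above, was the only one called against control. Its calls were at 3 and 6 h after PH, where 7.43% and 20.8% of all genes were called. Glutamine synthetase (Glul), the pericentral counterpart of the cycle, gave 7.45, 7.43 and 9.49 at 6 h after PH and 7.48, 7.94 and 8.14 at 6 h after TCP, against 8.23, 8.47 and 8.46 in control liver, and was not called in any group.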

How the data were processed

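Liver RNA of 21 mice was hybridised to Illumina mouse beadchips. The authors deposited 1 signal intensity and 1 detection p-value per probe and array, not normalised between arrays, and a second table of normalised log2 values, used here as an alternative. That table's scale was found by setting it against the signals (r = 0.985); its column medians were all 7.941. The array labels and the study's methods name different beadchip versions. Signals were background corrected with the detection p-values (neqc of limma 3.58.1 in R 4.3.3, offset 16), quantile normalised and log2 transformed. Kept were the 17970 probes that had 1 gene symbol and were detected (p under 0.05) on 3 arrays or more, of 34885 probes with 1 symbol, 18 with several and 10378 with none.

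All comparisons came from 1 limma model (lmFit and eBayes) of 7 groups, with Benjamini-Hochberg adjustment over 11442 genes, or over 17970 probes where single probes are given, and a threshold of 1.5-fold. The script was tested on simulated data. The 3 arrays per group limit the precision, and p-values measure the spread between mice. A trended and robust prior variance was run after the default had been seen and is an alternative. An added alternative of this kind, like the members and all lists, was chosen with earlier results of these data known. Named were every member with every probe, and those genes of the lists of enzymes, carriers, regulators and zones that were called in any of the 9 comparisons, up to 6 per list by size. The 3 genes most like each member were named by Pearson's r over all arrays. Glul was named after its values were seen. Summed marker levels add the normalised signals, less the offset, of 1 probe per marker on the array. This was the brightest detected probe, or the brightest probe where none was detected. Alternatives were the offset, no background correction, median scaling, the authors' normalised values, the filters, the mean of the probes, the beadchip or the replicate number as a block, fits within a beadchip, fits without 1 array and fits of only the groups compared.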

Additional observations from a re-analysis of the deposited data

Results flagged for a closer look

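Direct differences between PH and TCP livers of the same time passed the limma test for 8 genes of the neighbouring lists, which held 42 tested genes. At 3 h 1 of the 42 (2.38%) was called, beside 4.36% of all genes, and at 6 h 7 (16.7%), beside 10.3%. None of the 7 genes of the urea cycle and glutamate release was called. At 3 h, the glutamine transporter Slc38a3 differed by -0.81 (SE 0.19, adjusted p = 0.0188), with 12.07, 12.34 and 12.33 after PH and 13.26, 12.79 and 13.12 after TCP. At 6 h, the amino acid transporter Slc38a2 differed by 2.11 (adjusted p = 0.00459) and the arginine transporter Slc7a2 by 1.46 (adjusted p = 0.00304). Oat differed by 0.69 (adjusted p = 0.0449) and Ftcd by -1.01 (adjusted p = 0.00175). Among regulators, Hnf4a differed by 0.61 (adjusted p = 0.0215) and Cebpb by 0.83 (adjusted p = 0.026), and the pericentral Cyp1a2 by -0.62 (adjusted p = 0.0497). None of the 8 passed under a beadchip block (adjusted p = 0.22 to 0.831), and no beadchip held PH and TCP livers of the same time. The block gave -0.55 for Ftcd and 0.35 for Cebpb, and for the other 6 it gave -0.59 for Slc38a3, 1.51 for Slc38a2, 1.66 for Slc7a2, 0.62 for Oat, 0.62 for Hnf4a and -0.49 for Cyp1a2. Other probes gave 0.76 and 1.01 for Slc38a2, 0.82 and 1.04 for Slc7a2 and -0.51 for Ftcd at 6 h, none of them called, and a called -0.75 for Cyp1a2. At 6 h hepatocyte markers summed to 84100 to 89700 after PH and 67700 to 76300 after TCP, Kupffer cell markers to 670 to 1280 after PH and 1360 to 3290 after TCP, and neutrophil markers to 374 to 730 after PH and 100 to 149 after TCP; their part in these differences was not tested. Ftcd, Slc38a2 and Slc7a2, on the probe that stands for the gene, kept the call without any 1 array. Each of the others lost it in 4 or 5 of the 6 fits without 1 array, and over the 6 the difference was -0.94 to -0.71 for Slc38a3, 0.53 to 0.83 for Oat, 0.54 to 0.73 for Hnf4a, 0.76 to 0.95 for Cebpb and -0.77 to -0.50 for Cyp1a2.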

How the results depend on the processing

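Of 1129 values of the 7 genes under other settings, 1107 stayed on the same side of the threshold, 10 lost the call, all of Asl at 6 h after TCP, 12 gained one and 0 reversed a call; 85 values that were never called had the other sign. For the called list genes 482 of 680 values kept the call. With median scaling the median log2 difference of all genes from control was -0.11, -0.24 and -0.23 at hours 1, 3 and 6 after PH. After TCP it was -0.17, -0.17 and -0.14. In the main fit these medians were 0.00, -0.05 and -0.08 after PH and -0.01, -0.02 and -0.02 after TCP.

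The number of the 7 genes called was 1 at 6 h after TCP and 1 in the F test after TCP, and 0 elsewhere. Both were 0 with median scaling, with no filter on detection and with the beadchip as a block, and the first was 0 within beadchip 1. With an offset of 50 and with the authors' normalised values 1 gene was called between PH and TCP at 3 h (Cps1, -0.64 and -0.68) and 3 in the F test after TCP. Without background correction 1 was called at 3 h after TCP (Ass1, 0.76), 1 between PH and TCP at 3 h (Cps1, -0.64) and 3 in the F test after TCP. With the mean of a gene's probes 1 was called between PH and TCP at 3 h (Cps1, -0.73) and 2 in the F test after TCP. The study's filter left 741 genes and of the 7 only Asl, which was called at 3 h after TCP (1, at 1.05, adjusted p = 0.0496). The trended and robust prior, added after seeing the data, called 1 at 3 h after TCP (Ass1, adjusted p = 0.037), 1 between PH and TCP at 3 h (Cps1, adjusted p = 0.0235), 1 in the F test after PH and 3 in that after TCP. Without 1 array the number was 0 to 1 at 6 h after PH, at 3 h after TCP, between PH and TCP at 3 h and in the F test after PH, 0 in every fit at 6 h after TCP, 0 to 2 in the F test after TCP and 0 to 0 elsewhere. In the comparisons of single groups these gains were Nags without control replicate 3 and Asl without replicate 2 of PH 6 h or replicate 3 of TCP 3 h. For the F tests only the number was kept, not the names of the genes. Apart from the construction of each setting, the cause was not tested.

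With the beadchip as a block the number of all genes called was 5, 535 and 1122 at hours 1, 3 and 6 after PH, against 46, 850 and 2379 without it. After TCP it was 0, 5 and 43, against 21, 140 and 608. With the replicate number as a block the 7 genes again gave 1 call at 6 h after TCP (adjusted p = 0.0434) and 1 in the F test after TCP, and all genes gave 6 in place of 21 at 1 h after TCP and 47 in place of 31 between PH and TCP at 1 h. Of 27 pairs of same-numbered livers over the 9 comparisons, 1 deviated together (r over 0.1, with a range of -0.106 to 0.134), so that the numbers did not pair them. The 3 genes of lowest rank on the array, Nags, Otc and Asl, had the widest intervals of the 7 (0.70, 0.61 and 0.62 to either side).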
